A study of Homo sapiens with 16 samples.

Results

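The genes examined were 10 that code for AP-1 and EGR transcription factors: the FOS family (FOS, FOSB, FOSL1 and FOSL2), the JUN family (JUN, JUNB and JUND) and the EGR family (EGR1, EGR2 and EGR3). They were taken by gene symbol from the 23230 genes listed for each library, and all 10 were found and passed the filter on low counts, which kept 13043 genes. The data were mRNA sequencing of 8 established human blood cancer lines, with 1 library per line on each of 2 peptides. The control peptide, 3R, does not bind DPY30, and the test peptide, Y518R, does. DPY30 is a core subunit of the SET1/MLL complexes that methylate lysine 4 of histone H3. The lines with a fusion of the MLL gene were MOLM13 and THP1 (MLL-AF9), RS4-11 (MLL-AF4) and KOPN8 (MLL-ENL). The other lines were K562 (BCR-ABL leukemia), JURKAT (from T cell leukemia, labelled Myc dependent), RAJI (Burkitt's lymphoma) and P493-6 (labelled a Burkitt's lymphoma model). No library of cells without peptide was analysed here, and all lines grew in medium with 2.5% fetal bovine serum, so that serum, an inducer of these genes, was present throughout. The sources used here give neither peptide dose nor time.

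FOS and JUN proteins pair through leucine zippers to form AP-1, which binds the sequence TGACTCA and related sites. JUN proteins can also pair with each other, whereas FOS proteins need a partner. EGR proteins are zinc finger factors that bind GC-rich sites such as GCGTGGGCG. Most of these genes are immediate early genes: growth factors, serum or stress switch them on within minutes, without new protein synthesis, through kinases that act on serum response factor (SRF), its partner ELK1 and CREB at their promoters. The mRNAs of FOS, JUN and EGR1 are short-lived, and in blood cells AP-1 and EGR factors are known for roles in monocytic differentiation and lymphocyte activation.

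Gene counts ran from 19354300 in RAJI 3R to 43003124 in RS4-11 3R. The RAJI 3R library stood apart: 44.7% of its reads were given to no gene, against 17.7% to 26.9% in the 15 others. Each of the 16 libraries was matched best by the other library of its own line. Defining markers fitted the named lines: 4 of 5 monocytic markers, CD14 being the exception, were at 10 CPM (counts relative to a common library size, scaled by TMM) or more in both libraries of MOLM13 and THP1, all 5 B-lineage markers in KOPN8, RAJI and P493-6 and 4 of 5 in RS4-11, all 5 T cell markers in JURKAT and all 5 erythroid markers in K562. B-precursor markers separated the lines less cleanly: 3 of 4 were at that level in RS4-11 and also in JURKAT, and 2 of 4 in KOPN8. A count of 0 allows up to 3 counts, or 0.0698 to 0.155 CPM by library, and intervals below cover counting error only. Libraries of a line had different peptides and nothing says that they were repeat cultures. The p-values for peptide and line class thus rest on how far lines differed from each other, part of which may be technical. In the test over line terms, differences between lines were set against those between libraries of a line beyond a shared peptide change. In these bulk libraries, fewer cells that express a gene and less RNA per cell cannot be told apart.

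RefSeq promoter windows were at hand for 8 of the 10 genes (FOSL1 and EGR3 were not matched). Shown are the 250 bases before the start of FOS, FOSL2, EGR2, JUN and EGR1. The first 3 are among the 4 genes whose line means did not overlap between the line classes. JUN and EGR1 passed 1.5-fold between peptides in the most lines, counting only lines with at least 1 CPM in either library. For EGR2, which has 3 windows, the last is shown, the only one with a match. The sequences are from GRCh38.p14 and written 5′ to 3′ on the gene's strand. Capitals mark matches, on either strand, to the CArG box that SRF binds, to TATAAA, to the AP-1-like site TGACATCA, and to TGACGT, the first part of the CREB site TGACGTCA.
FOS, chr14:75278578-75278827, + strand: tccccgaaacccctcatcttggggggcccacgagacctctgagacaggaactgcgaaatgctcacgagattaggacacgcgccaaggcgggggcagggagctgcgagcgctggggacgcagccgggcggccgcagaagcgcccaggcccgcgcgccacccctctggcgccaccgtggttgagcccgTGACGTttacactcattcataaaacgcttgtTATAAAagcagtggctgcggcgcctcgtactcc
FOSL2, chr2:28392608-28392857, + strand: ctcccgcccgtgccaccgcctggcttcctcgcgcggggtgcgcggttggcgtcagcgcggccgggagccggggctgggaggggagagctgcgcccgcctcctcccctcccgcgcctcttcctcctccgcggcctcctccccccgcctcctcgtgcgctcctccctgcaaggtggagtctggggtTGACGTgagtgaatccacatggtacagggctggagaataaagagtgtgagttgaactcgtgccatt
JUN, chr1:58784048-58784297, - strand: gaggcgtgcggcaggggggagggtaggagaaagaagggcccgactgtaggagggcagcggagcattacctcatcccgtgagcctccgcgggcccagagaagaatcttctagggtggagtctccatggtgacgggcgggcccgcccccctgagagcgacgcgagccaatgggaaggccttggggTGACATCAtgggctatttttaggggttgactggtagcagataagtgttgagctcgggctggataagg
EGR1, chr5:138465229-138465478, + strand: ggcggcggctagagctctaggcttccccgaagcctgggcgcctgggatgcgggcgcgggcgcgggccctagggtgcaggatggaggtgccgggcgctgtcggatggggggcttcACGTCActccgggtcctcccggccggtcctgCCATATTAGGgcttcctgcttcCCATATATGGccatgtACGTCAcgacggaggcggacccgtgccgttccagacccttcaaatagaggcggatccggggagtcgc
EGR2, chr10:62816367-62816616, - strand: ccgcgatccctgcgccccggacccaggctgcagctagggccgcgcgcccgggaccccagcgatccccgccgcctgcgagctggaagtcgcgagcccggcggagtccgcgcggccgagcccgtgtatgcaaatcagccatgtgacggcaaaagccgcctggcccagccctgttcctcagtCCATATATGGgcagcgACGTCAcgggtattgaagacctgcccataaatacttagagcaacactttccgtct

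Matches to TGACGT were found in the windows of FOS, FOSB, FOSL2, JUND, EGR1 and EGR2, against 7.98% of all 35116 windows of 300 bases (250 before to 50 after each start). In FOS the match began 64 bases before the start, in FOSB 60, in FOSL2 66 and in EGR2 55. EGR1 held a pair of them, 136 and 67 bases before its start. JUND held the whole palindrome TGACGTCA, which contains TGACGT on both strands, 200 bases before its start (1.85% of windows hold the palindrome). A separate TGACGT stood 87 bases before the JUND start. CArG boxes stood 105 and 83 bases before the EGR1 start and 71 before that of EGR2, and 1.29% of windows hold one. Both the CArG box and the TGACGT of EGR2 were in the last of its 3 windows, and its other windows held no match to any motif searched. Shares are given per window, whereas EGR2 was searched in 3. TATAAA was found in FOS, FOSB and JUNB, 33, 30 and 31 bases before the start, and in 11.5% of windows. JUN held TGACATCA 67 bases before its start (2.61% of windows). The AP-1 site TGACTCA occurred only in FOSL2, 4 bases after the start and outside the bases shown, against 4.95% of windows, and the EGR site GCGTGGGCG matched in none of the members' windows, against 0.795% of all. TGACATCA and TGACGT were added to the search after the sequences had been read, and a match is a description of the letters, not a bound site. Bases beyond the windows were not searched, so sites there, including any CArG box of FOS or the other genes, would not appear.

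The 10 genes differed between lines by far more than between the peptides within a line. An edgeR quasi-likelihood test over the line terms called all 10 (highest adjusted p 4.16e-05, for EGR2), near the 98.3% it called of all genes. On the log2 scale, line means spanned 8.50 for FOS, 7.91 for FOSL1, 7.57 for FOSL2 and 7.10 for EGR1, against a median span of 2.27 over the genes tested. The smallest spans were 3.23 for JUNB and 3.63 for JUN. The spread between the libraries of a line (SD of log2 CPM) was 0.15 for JUND and 0.72 for EGR3, the extremes of the set, against a median of 0.18 over genes.

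FOS, the founding FOS family member and an unstable partner of JUN, had its highest values in MOLM13, 91.7 CPM on the 3R peptide and 114 on Y518R. Pairs of values below keep this order of peptides. THP1 had 32.8 and 41.9 CPM, RS4-11 8.46 and 8.05, and KOPN8 5.05 and 3.43. In the other lines it was at 2.61 and 2.54 CPM in RAJI, 1.64 and 1.61 in K562, 1.17 and 1.13 in P493-6 and 0.172 and 0.26 in JURKAT, the last from 7 counts in each library. Every library of an MLL-fusion line was thus above every library of the other lines, and no neighbours in the order of lines overlapped in the range of their libraries.

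FOSL2, a FOS relative that lacks the strong activation domain of FOS, had a like order. MOLM13 had 116 and 122 CPM, THP1 111 and 90.6, RS4-11 23.4 and 26.7, and KOPN8 11.4 and 13.7. JURKAT followed at 7.08 and 6.87 CPM, then RAJI at 3.45 and 2.59, K562 at 1.51 and 2.80 and P493-6 at 0.534 and 0.582. The 4 MLL-fusion lines again held the highest 4 places, and RAJI and K562 were the only neighbours whose libraries overlapped. FOSB, a close relative of FOS, had 9.84 and 9.16 CPM in MOLM13, 2.15 to 4.01 CPM in the 6 libraries of THP1, RS4-11 and KOPN8, and 0.148 to 2.33 CPM in the other lines. Its line means did not overlap between classes, but the RAJI Y518R library, at 2.33 CPM, lay within the range of the MLL-fusion libraries.

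FOSL1, which like FOSL2 lacks a strong activation domain, had another order. K562 was highest at 28.5 and 30.9 CPM, before MOLM13 (13.6 and 19.2), KOPN8 (10.2 and 9.21) and THP1 (7.47 and 9.40). P493-6 had 2.28 and 1.88 CPM and RS4-11 had 0.622 and 0.757. RAJI had 9 and 2 counts and JURKAT 0 and 4. The leading line was therefore not an MLL-fusion line, and the KOPN8 and THP1 libraries overlapped.

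JUND, the JUN protein known for steady expression in resting cells, had 795 and 752 CPM in MOLM13. K562 had 140 and 171 CPM, THP1 139 and 119, RS4-11 131 and 128, and KOPN8 115 and 115. P493-6 (73.1 and 66.1), RAJI (63.7 and 70.3) and JURKAT (54.4 and 40.5) were lower. MOLM13 was far above the rest, with a mean of 774 CPM against 156 in K562, the next line.

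JUNB, which can oppose JUN in growth control, was also highest in MOLM13, at 234 and 230 CPM. RAJI was next, at 182 and 117 CPM, then RS4-11, at 78.6 and 68.6. P493-6, K562, THP1 and KOPN8 lay between 43 and 60.8 CPM with overlapping libraries, and JURKAT was lowest at 26 and 23.4. The leading lines were thus of both classes. JUN, the main transforming member of the family, ran from 64.5 and 39.9 CPM in MOLM13 to 5.44 and 2.97 in RS4-11. THP1 had 28.5 and 60.5 CPM and K562 24.3 and 30.0, and THP1 overlapped with each of K562 and MOLM13. P493-6 had 21.9 and 18.3 CPM, KOPN8 19.8 and 15.6, RAJI 8.04 and 5.18 and JURKAT 6.91 and 6.38.

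EGR1, the EGR factor most readily induced by serum and stress, was highest in K562, at 68 and 53.8 CPM. MOLM13 (34.5 and 19.1 CPM) and RAJI (27.1 and 15.4) overlapped below it. KOPN8 had 12.1 and 8.60 CPM, RS4-11 7.35 and 6.87, JURKAT 4.41 and 4.31 and THP1 3.77 and 4.70. P493-6 had only 6 and 18 counts. Lines of the classes were mixed in this order, unlike that of FOS.

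EGR2 and EGR3, which share the EGR zinc fingers and are known for roles in lymphocytes, had the lowest medians per kilobase of exon, 0.116 and 0.0974 CPM per kb. For EGR2, KOPN8 had 3.45 and 1.23 CPM, RS4-11 2.51 and 1.85, MOLM13 1.02 and 1.19, and THP1 0.222 and 0.761. It had 0 to 9 counts in each library of the other lines, including 0 in K562 Y518R and JURKAT Y518R, and the THP1 3R library lay below both RAJI libraries (0.47 and 0.259 CPM). EGR3 was at 6.2 and 6.85 CPM in KOPN8 and at most at 2.14 CPM in the other lines, with 0 and 1 counts in K562. KOPN8 was the highest line for both genes, although for EGR2 its libraries overlapped with those of RS4-11.

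**Figure D1:**
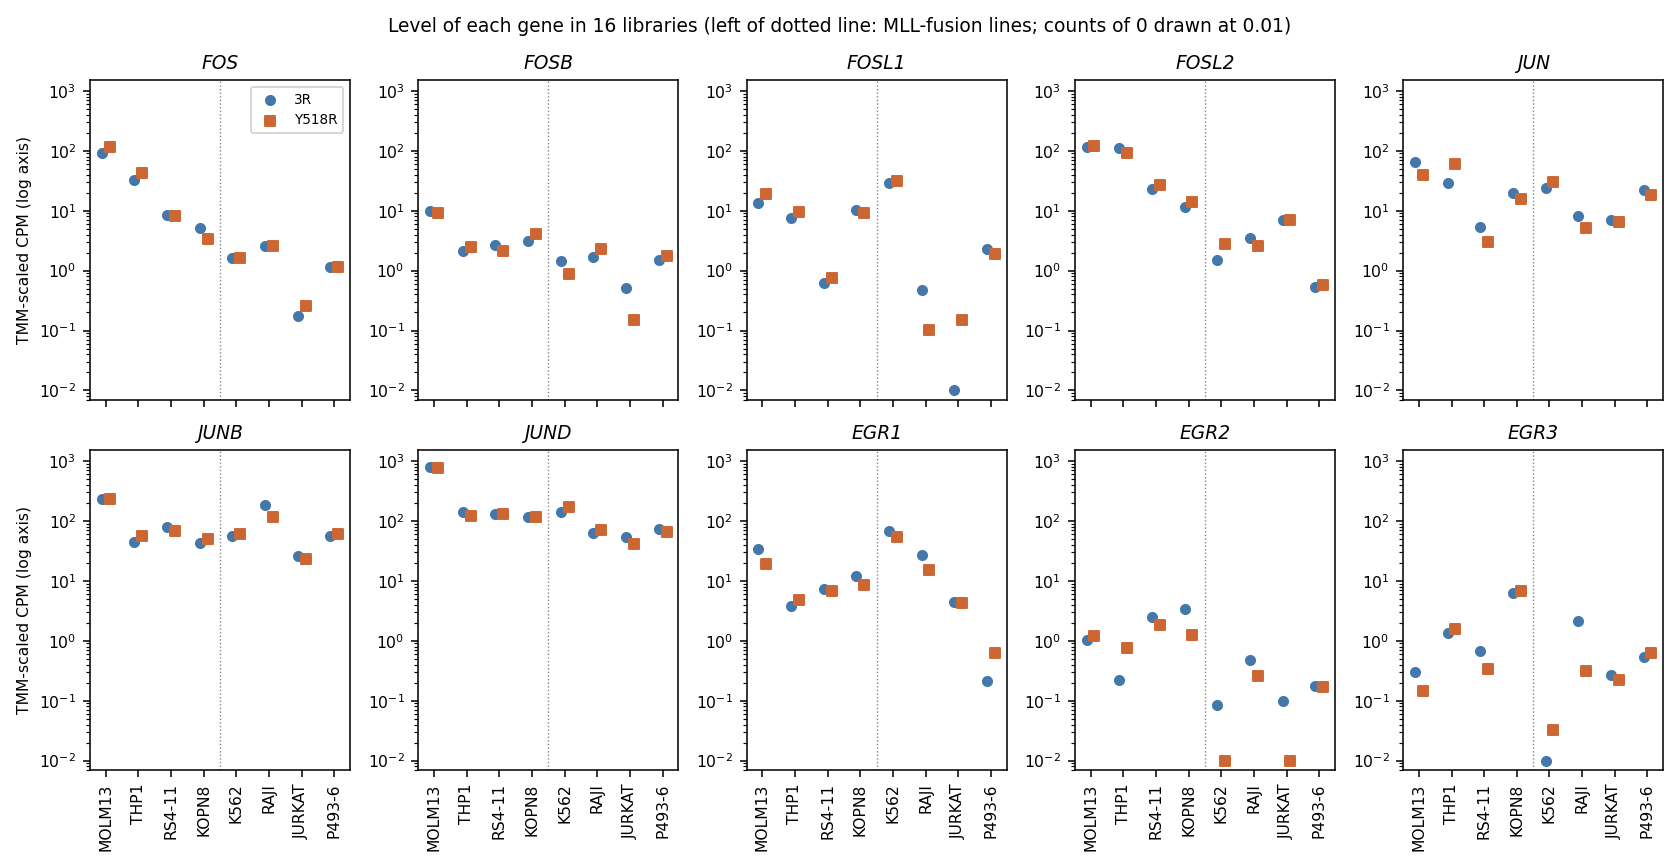
TMM-scaled CPM (log axis) of the 10 genes in each line, circles for 3R and squares for Y518R, with the 4 MLL-fusion lines left of the dotted line and counts of 0 drawn at 0.01. FOS falls from 114 CPM in MOLM13 to 0.172 in JURKAT with all MLL-fusion libraries above the others, whereas K562 holds the highest FOSL1 and EGR1.

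Within a family, levels were compared per kilobase of annotated exon. JUND made up the largest share of the JUN family sum in 14 of 16 libraries, and JUNB did so in both RAJI libraries, at 73.2% with 3R and 62.1% with Y518R. JUN itself was the least abundant of the family in every library, at 0.783% to 15.3% of its sum, the highest share being that of THP1 Y518R. The FOS family had no common leader. FOS led in MOLM13 (54.3% and 56.4%), RAJI (45.5% and 50.2%) and THP1 Y518R (43%). FOSL2 led in THP1 3R (51.1%), RS4-11 (48.3% and 52.6%) and JURKAT (87.3% and 83.8%), and FOSL1 in KOPN8, P493-6 and K562, where it made up 93.7% and 93.8% of the sum. EGR1 led its family in 15 libraries, and EGR3 in P493-6 3R, where EGR1, EGR2 and EGR3 had 6, 5 and 15 counts. The leader was therefore the same with both peptides in 8 of 8 lines for the JUN family, and the exceptions for the others were THP1 (FOS family) and P493-6 (EGR family).

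**Figure D2:**
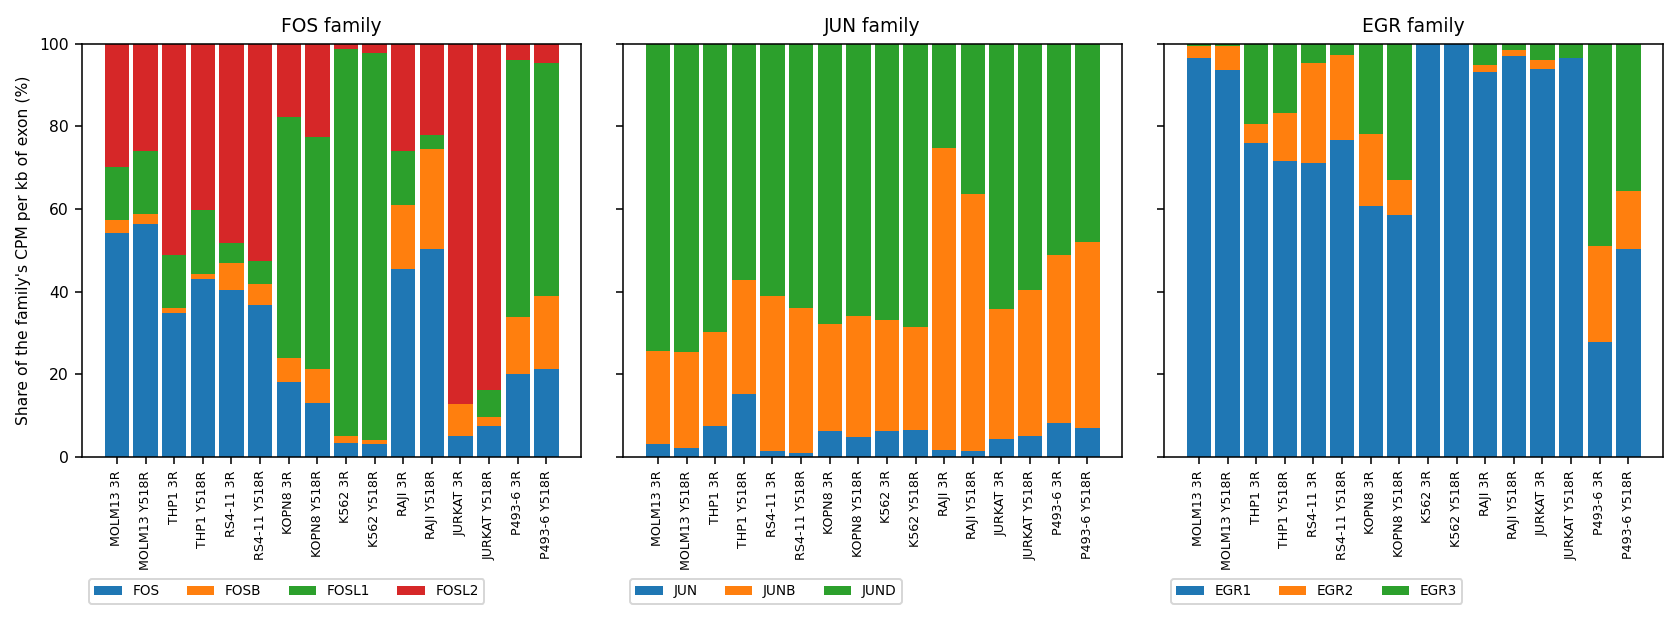
Share (%) of each family's summed CPM per kilobase of exon held by each member, 1 bar per library. JUND is the largest JUN family member outside RAJI, and FOSL1 holds 93.7% and 93.8% of the FOS family in K562.

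The labels divide the lines by MLL fusion, and levels were compared between these classes on the summed counts of each line (4 lines against 4). edgeR called none of the 10 genes, and it called 0.0767% of all genes (10 of 13043). The largest differences were those of FOS, 4.77 ± 1.25 (log2, MLL-fusion minus other lines, ± SE; unadjusted p = 0.0049, edgeR adjusted p = 0.343), and FOSL2, 4.32 ± 1.02 (unadjusted p = 0.00275, edgeR adjusted p = 0.332). EGR2 had 3.25 ± 0.89, FOSB 1.79 ± 0.75 and JUND 1.74 ± 0.74, with edgeR adjusted p of 0.346, 0.48 and 0.481. EGR3 (2.09 ± 1.33), JUN (0.96 ± 0.82), JUNB (0.47 ± 0.69), FOSL1 (0.10 ± 1.65) and EGR1 (−0.82 ± 1.24) had differences of less than 2 SEs. The signs of EGR1, FOSL1 and JUNB turned when single lines were left out: EGR1 was at 0.48 without K562, FOSL1 at −0.38 and JUNB at −0.35 without MOLM13. Without MOLM13, JUND was at 0.53, FOSB at 1.11 and JUN at 0.52, and without KOPN8 EGR3 was at 0.50.

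Line means of the classes did not overlap for FOS, FOSB, FOSL2 and EGR2, each higher in the MLL-fusion lines. Over all genes tested, 4.22% were higher without overlap in the MLL-fusion lines and 3.43% were lower. Line means of FOS ran from 4.24 to 103 CPM in the MLL-fusion lines and from 0.216 to 2.57 CPM in the others, and those of FOSL2 from 12.6 to 119 and from 0.558 to 6.97 CPM. The median difference of the 10 genes was 1.76, with 9 above 0, against −0.013 over all genes tested. DESeq2 called FOS (adjusted p = 0.000473), FOSL2 (0.000181) and EGR2 (0.0283) among 490 genes, and limma-voom called no gene, so the calls depend on the tool. Lineage ran across the classes: the summed monocytic markers were at 655 to 920 CPM in MOLM13 and THP1, the leading lines for FOS and FOSL2, 17.6 to 47.7 CPM in RS4-11 and KOPN8 and 0.482 to 55.1 CPM in the other lines, with none of the 5 markers at 0 in both libraries of a line. Their part in the result was not tested.

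**Figure D3:**
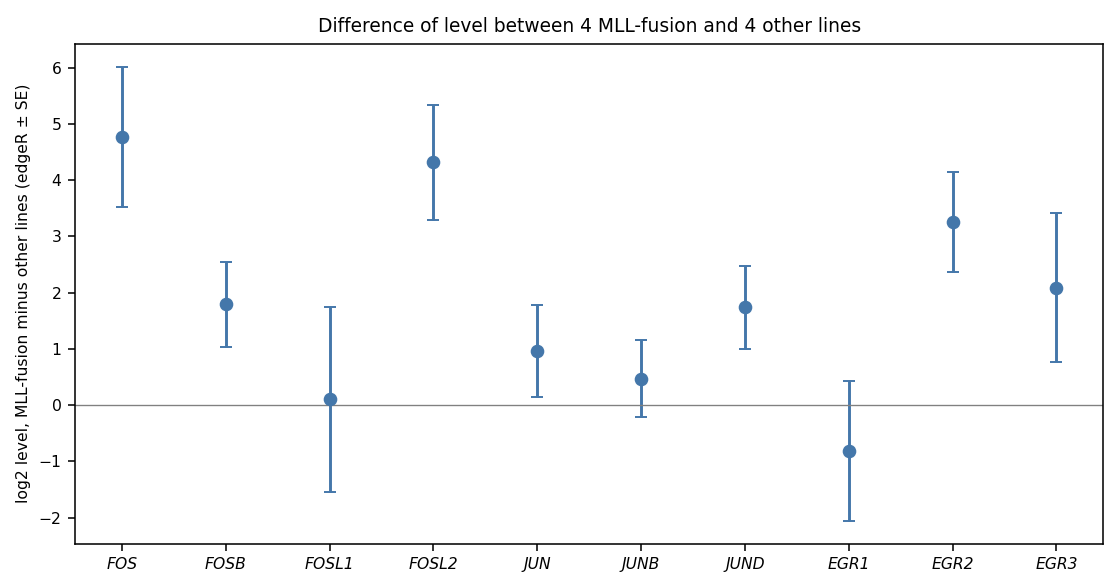
Difference of level (log2, edgeR) between 4 MLL-fusion and 4 other lines for each gene, with bars of 1 SE. FOS (4.77) and FOSL2 (4.32) stand highest, EGR1 (−0.82) is the single value below 0, and none was called.

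Across the 8 lines, line means of log2 CPM of the members were mostly alike in direction. Pearson r over the 45 pairs ran from −0.32 (EGR1 with EGR3) to 0.87 (FOS with FOSB), with a median of 0.40 and 39 above 0. FOSL1 with JUN had 0.84, FOS with JUND 0.83 and FOS with FOSL2 0.81. These are descriptions over 8 lines that share line and library depth. The genes named next were picked as the highest of 10850 genes at a mean of 5 CPM or more. Such a choice over 8 lines gives high r among unrelated genes too, so no link to the members is read from it. Those most like FOS in level were ZBTB7A (r = 0.971), SEC63 (0.964) and DPY19L4 (0.958). For FOSL2 they were RXRB (0.978), IL1RAP (0.960) and ZNF700 (0.958), and for JUND VENTX (0.982), IDH1 (0.949) and LLPH (0.941). JUN was most like TGFBR1 (0.964), CNO (0.954) and DCTN6 (0.948), JUNB most like RPS12 (0.949), GAS5 (0.944) and EEF1A1 (0.937), and FOSB most like ZNF493 (0.942), ERP29 (0.940) and SH3BP1 (0.934). FOSL1 was most like WASH7P (0.953), SLC30A6 (0.949) and SUOX (0.949), and EGR1 most like C6orf35 (0.969), TMEM14B (0.957) and LSM4 (0.946). EGR2 was most like VAT1L (0.941), MYO9B (0.940) and CDKN2AIP (0.931), and EGR3 most like RRP7A (0.942), SPATA24 (0.930) and ARHGAP17 (0.928).

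The peptide comparison asked whether the DPY30-binding peptide changed these genes. Over all 8 lines edgeR called none of the 10 genes and 0% of all genes. EGR1 came nearest, at −0.30 ± 0.15 (log2, Y518R minus 3R, ± SE; unadjusted p = 0.0648, edgeR adjusted p = 1), and was lower in 6 of 8 lines. EGR2 (−0.39 ± 0.41) and EGR3 (−0.46 ± 0.35) had larger differences with wider errors. JUN had −0.16 ± 0.17, JUNB −0.03 ± 0.087 and JUND −0.062 ± 0.068. FOS had 0.045 ± 0.12, FOSB −0.077 ± 0.22, FOSL1 0.12 ± 0.20 and FOSL2 0.064 ± 0.11. Each had an edgeR adjusted p of 1, 3 of 10 were above 0, and the median was −0.069 against −0.0021 over all genes tested. No gene had an adjusted p under 0.05, while 397 genes, none of them a member, had an unadjusted p under 0.05. DESeq2 had 376 such genes, none of them a member, and also called none. Limma-voom had 586, of which 2 were members, and called 3 genes, none of them a member. In edgeR without THP1, 2 of 495 such genes were members, and without P493-6, 1 of 425. With any other single line left out, no member had an unadjusted p under 0.05.

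In the MLL-fusion lines edgeR called 0% of all genes and no member (770 genes at an unadjusted p under 0.05). The members ran from −0.31 ± 0.21 for EGR1 to 0.24 ± 0.26 for FOSL1. JUND (−0.088 ± 0.098) was below 0 in 4 of 4 lines, but past counting error only in MOLM13 and THP1. In RS4-11 (−0.034) and KOPN8 (−0.0037) it was within counting error. In the other lines edgeR called 0% and no member (206 genes at an unadjusted p under 0.05), with values from −1.05 ± 0.84 for EGR2 to 0.10 ± 0.19 for FOSL2. The test of the difference between classes likewise called 0% and no member (494 genes at an unadjusted p under 0.05), and its lowest unadjusted p among the members was 0.214, for JUNB (0.22 ± 0.17). DESeq2 called 1, 0 and 2 genes in these comparisons and limma-voom 20, 2 and 2, none of them a member.

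JUN combined changes of opposite direction in the lines with MLL-AF9. It went from 64.5 CPM with 3R to 39.9 with Y518R in MOLM13 (1521 and 836 counts, log2 ratio −0.69, 95% interval of the ratio 0.568 to 0.673). In THP1 it went from 28.5 to 60.5 CPM (901 and 1829 counts, log2 ratio 1.08, interval 1.96 to 2.30). RS4-11 had 236 and 98 counts (−0.86), KOPN8 −0.34, RAJI −0.63, P493-6 −0.26, JURKAT −0.11 and K562 0.30. JUN was therefore lower with Y518R in 6 of 8 lines and past counting error in 7, with THP1 and K562 on the other side. JUNB and JUND were each past counting error in 6 lines. At high counts small ratios pass, such as 0.946 for JUND in MOLM13, and the share over all genes was not computed. With single lines left out, the edgeR value in the MLL-fusion lines, −0.17 ± 0.25 with all 4, ran from −0.62 ± 0.17 without THP1 (edgeR adjusted p = 0.574) to 0.017 without RS4-11 and 0.029 without MOLM13. Over 8 lines it ran from −0.35 without THP1 to −0.072 without MOLM13 and −0.073 without RS4-11. The size of the value thus turned on single lines in both directions.

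EGR1 was lower past counting error in MOLM13 (814 and 401 counts, log2 ratio −0.85), RAJI (520 and 297, −0.82), KOPN8 (295 and 266 counts in libraries of unequal depth, −0.49) and K562 (1579 and 1633, −0.34). RS4-11 (−0.096) and JURKAT (−0.034) had values near 0, and THP1 (119 and 142 counts, 0.31) and P493-6 (6 and 18 counts, 1.27) were higher with Y518R. The P493-6 rise was past counting error too (interval 1.1 to 8.88). With single lines left out, the edgeR value over the rest ran from −0.40 without THP1 to −0.20 without MOLM13 and −0.22 without RAJI, and EGR1 was called in none of these fits.

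RAJI had the most members past 1.5-fold. Among the 8 members at 1 CPM or more in either library, 4 were lower by at least 1.5-fold and none higher, against 12.1% of all such genes in either direction, of which 1075 were lower and 305 higher. The 4 were JUN (154 and 100 counts), JUNB (3478 and 2254 counts), EGR1 and EGR3 (41 and 6 counts, log2 ratio −2.54), and EGR3 reached 1 CPM only with 3R. Of the 7 members at 1 CPM in both libraries, 3 were lower by this fold, with a median of −0.40. The RAJI 3R library is the one with 44.7% of reads outside genes, and its part in the result was not tested. Without RAJI the JUNB change over the remaining lines was 0.059, where it was −0.03 with all 8.

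In MOLM13, 2 of 9 members were past 1.5-fold, JUN and EGR1, both lower (13.4% of all genes). In THP1 JUN alone of 9 was past it, upward (15.6%), although 7 of 9 were above 0, with a median of 0.31. In RS4-11 it was JUN of 8 (4.39%), in KOPN8 EGR2 of 10 (84 and 38 counts; 6.04%), both lower, and in K562 FOSL2 (35 and 85 counts, higher) and FOSB (34 and 27 counts, lower) of 8 (5.78%). The FOSB value was within counting error (interval 0.352 to 1.04) and FOSB reached 1 CPM only with 3R. None of 5 members was past it in JURKAT (4.69%) and none of 6 in P493-6 (5.5%). The line with the most members past the fold was thus not the one with the most genes past it, which was THP1. FOS moved past counting error in 3 lines, upward in MOLM13 (2163 and 2386 counts, 0.31) and THP1 (1036 and 1265, 0.35) and downward in KOPN8 (123 and 106, −0.55).

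**Figure D4:**
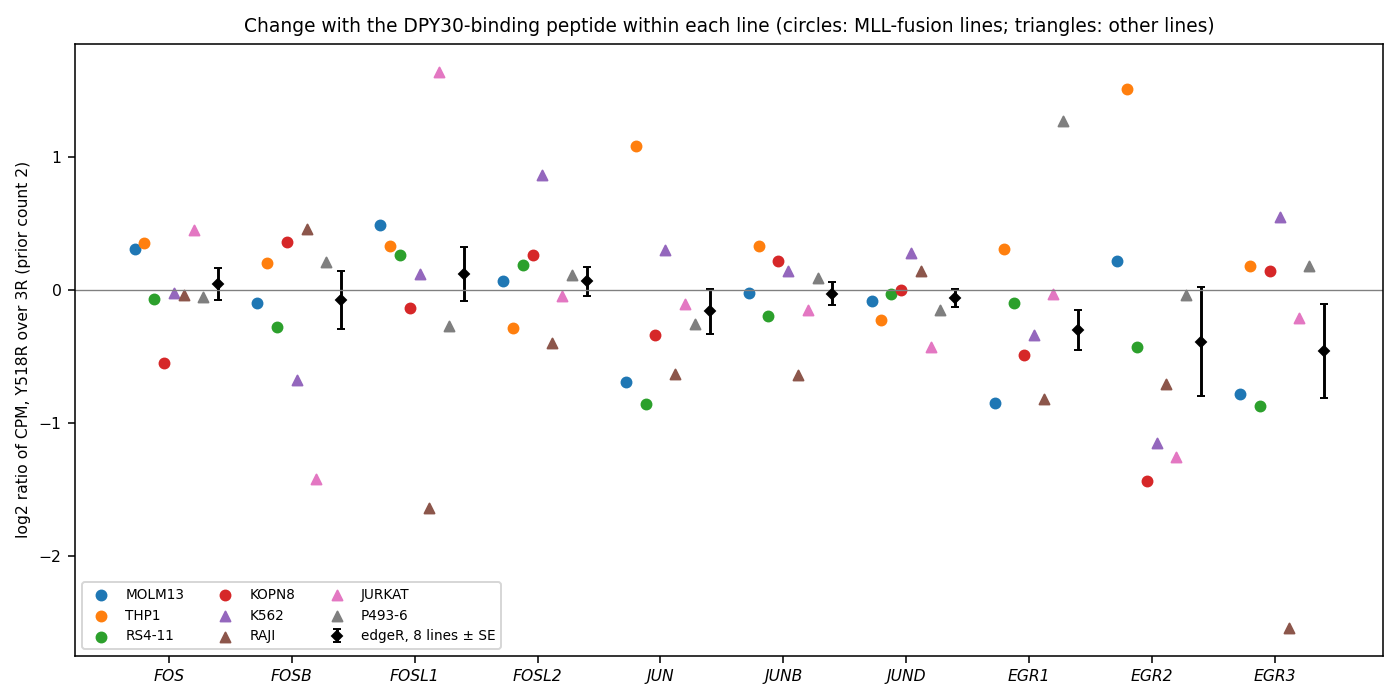
Log2 ratio of CPM, Y518R over 3R, of each gene in each line (circles, MLL-fusion lines; triangles, other lines), with the edgeR value over 8 lines and its SE as black diamonds. JUN lies at 1.08 in THP1 and −0.69 in MOLM13, and EGR3 at −2.54 in RAJI.

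Over the 8 lines, log2 ratios of pairs of members had a median Pearson r of 0.083, lower than for levels, with JUNB and EGR3 at 0.92 (0.73 without RAJI) and FOSB and FOSL1 at −0.80 (−0.56 without JURKAT, which had 21 and 4 FOSB and 0 and 4 FOSL1 counts). The spread of ratios across lines (SD) ran from 0.22 for JUND to 0.99 for EGR3, against a median of 0.25 over genes tested. JUNB had 0.30, FOS 0.32, JUN 0.63 and EGR1 0.69. The values of EGR1 and EGR3 include pairs of few counts, such as 6 and 18 for EGR1 in P493-6 and 41 and 6 for EGR3 in RAJI. Genes most alike in ratio were picked in the same way as for level, so their high r carries the same limit. The genes most like FOS in ratio were NAA25 (0.964), MCTS1 (0.930) and ST14 (0.910). For JUN they were GPATCH8 (0.952), FBXW11 (0.952) and FZD3 (0.947), and for EGR1 they included GNAQ (0.934) and SLC35E2B (0.927).

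Other genes of the pathway were counted from lists. Of the partners of FOS and JUN (BATF, ATF, MAF and JDP2 proteins), 9 of 10 were tested and none was called over the 8 lines, with a median of −0.095 and 1 above 0. MAFG had −0.19 ± 0.064 (unadjusted p = 0.0106, edgeR adjusted p = 1), ATF2 −0.13 ± 0.070 and ATF7 −0.095 ± 0.062. Of other immediate early genes, 24 of 27 were tested and none called (median −0.055, 9 above 0); the lowest unadjusted p was 0.0371, for PPP1R15A, a regulator of eIF2α phosphorylation (−0.16 ± 0.070), followed by TRIB1 (0.31 ± 0.15) and NFKBIZ (−0.23 ± 0.11). None of the 14 feedback regulators (median −0.038), which switch MAP kinase signalling off, was called; SPRED2 had −0.16 ± 0.097, SPRY2 −0.14 ± 0.10 and DUSP6 0.21 ± 0.17.

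None of the 20 upstream kinases and factors was called (median −0.01), among them SRF at 0.11 ± 0.060 (higher in 7 of 8 lines), RPS6KA5 at −0.18 ± 0.11 and CREB1 at −0.10 ± 0.066. Of textbook AP-1 target genes 7 of 11 were tested and none called (median −0.027), with CD44 at 0.23 ± 0.13, MMP9 at −0.35 ± 0.30 and PLAU at −0.15 ± 0.16. None of 6 heat shock genes was called (median 0.014), with HSPA1B at 0.18 ± 0.11, HSPA6 at 0.54 ± 0.41 and HSPA1A at −0.22 ± 0.20; HSPA1A and HSPA1B are near-identical copies, so their split is uncertain. In the comparison of line classes for level, no gene of these lists was called either.

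Within single lines the lists were described by their medians, without a test, over genes whose libraries had a mean of 1 CPM or more; a gene near that level can still enter through its higher library. This filter was chosen after the values under 3 filters had been seen. In THP1 the medians of the first pair of lists were both 0.31 over genes at 1 CPM in either library and 0.22 and 0.19 over those at 1 CPM in both. In THP1 the other immediate early genes had a median log2 ratio of 0.29 (16 of 22 above 0) and the feedback regulators 0.19 (9 of 12). The AP-1 target genes had 0.55 (8 of 8). The median over the genes tested that were at 1 CPM in either library was 0.017. In RAJI the first pair of lists had −0.30 (4 of 20 above 0) and −0.36 (1 of 9), or −0.24 (1 of 8) for feedback regulators at 1 CPM in both libraries, against −0.0011. The 4 AP-1 targets at that level in RAJI had a median of −0.95 and none above 0, and 2 of them were at 1 CPM in both libraries. MOLM13 had −0.25 (4 of 21) and −0.30 (3 of 14) for the first pair of lists but 0.15 (5 of 7) for AP-1 targets. In the remaining 5 lines the first pair of lists had medians of −0.13 to 0.088, and the AP-1 targets −0.47 (JURKAT, 0 of 3 above 0) to −0.0065 (RS4-11, 2 of 4). The other lists did not all share these directions. The partners of FOS and JUN had −0.14 (2 of 10) in THP1, −0.12 (2 of 7) in RAJI and −0.18 (1 of 9) in MOLM13. In the same order of lines, heat shock genes had 0.12 (5 of 6), 0.54 (4 of 4) and 0.23 (3 of 5). The upstream kinases and factors had 0.068, 0.035 and −0.096.

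Single genes were named after their values were seen, and genes of the same lists moved both ways. KLF2 went from 692 to 229 counts and MYC from 6222 to 3701 in THP1, and TRIB1 from 505 to 617 in RAJI. NR4A3, an immediate early nuclear receptor, went from 28 to 107 counts in THP1 and from 41 to 3 in RAJI. NR4A3 reached 1 CPM only in its higher library in both lines. DUSP6, a phosphatase for ERK kinases, went from 534 to 1062 counts in THP1. In THP1 the monocytic markers CD14 (4.34 to 17.7 CPM), ITGAM (11.1 to 57.4) and CSF1R (91.5 to 158) were also higher with Y518R while LYZ was lower (758 to 529), and the 5 summed to 920 and 827 CPM; their part in the result was not tested. In RAJI the 5 B-lineage markers summed to 2872 and 2412 CPM. There is 1 library per peptide in each line, so none of these within-line differences has a replicate check.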

How the data were processed

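The deposited values are counts per gene symbol, whole numbers and not normalized, in 1 file per library. Per the submitters' processing notes, the tools were HTSeq 0.6.1, TopHat2 2.1.1, CASAVA 1.8.4, DESeq and DESeq2 3.0, with no step for each, and the builds GRCh38 and hg19. The sources used here do not give the strand setting, so overlapping or antisense reads cannot be told apart. The 5 entries naming no gene stayed out of library sizes.

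The test was that of edgeR 4.0.16 in R 4.3.3 (quasi-likelihood, TMM, filterByExpr minimum count 10, cell line as block, Benjamini-Hochberg over 13043 genes, calls under 0.05); SE is the log2 change over the square root of F. Line and peptide come from the labels; pairs were checked by Spearman correlation, 0.986 to 0.997 within lines and at most 0.881 between. Level between classes used summed counts per line. Within lines, log2 ratios used a prior count of 2, with exact 95% intervals for the ratio of 2 counts. Exon lengths came from GENCODE, promoters from RefSeq. Alternatives were RLE scaling, no filter, no block, DESeq2 1.42.0, limma-voom 3.58.1, each line left out, peptides apart, a prior count of 0.5 and, chosen after seeing the data, both RAJI and THP1 left out and other CPM filters within lines. Scripts were tested on simulated data. Members and lists were chosen with earlier results of these data known. Named genes were the members, the 3 of each list with the lowest p over 8 lines, and the 3 most alike, of which 1 is not reported here; list genes called between lines are given as counts.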

Additional observations from a re-analysis of the deposited data

Results flagged for a closer look

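Values were examined in 40 sets: per gene, the log2 ratios over 8 lines and in each class, and the line means in CPM. Of these, 7 held a value far from the rest. A chance rate of about 1 flag in 20 assumes normally distributed values. Line means in CPM are skewed toward high values and were not put on the log2 scale, so that rate cannot be applied to their flags. MOLM13 stood apart in level for FOS (103 CPM), FOSB (9.5 CPM) and JUND (774 CPM), K562 for EGR1 (60.9 CPM) and KOPN8 for EGR3 (6.52 CPM). In log2 ratio of Y518R over 3R, RAJI stood apart for EGR3 at −2.54, from 41 and 6 counts. JURKAT stood apart from the 3 other lines without an MLL fusion for FOS at 0.45, from 7 counts in each library.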

How the results depend on the processing

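Over 8 lines, no alternative called a member for the peptide. Genes called were 3 with limma-voom and 3 with no filter; in the MLL-fusion lines 1 with DESeq2, 20 with limma-voom and 52 with no filter; in the other lines 2 with limma-voom and 1 with no filter; for the difference between classes 2 with DESeq2, 2 with limma-voom and 9 with no filter. With single lines left out the counts were 0 in the 8 lines and other lines, 0 to 3 in the MLL-fusion lines (3 without MOLM13, 1 without RS4-11) and 0 to 1 for the difference (1 without MOLM13 or THP1). With no replicate block, the lines unpaired, edgeR called 0 genes in each peptide comparison, and FOSB was at 0.0018 and FOSL2 at −0.049. For level between classes DESeq2 called 490 genes and 3 members, limma-voom 0 and Y518R libraries alone 4; 4 to 11 were called with single lines left out (4 without JURKAT or MOLM13).

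Peptide changes over 8 lines that turned sign were near 0: FOS −0.019 without both RAJI and THP1, FOSL2 −0.0083 and JUN 0.012 with limma-voom, and JUNB 0.015 without both RAJI and THP1. With single lines left out FOS ran from −0.028 to 0.14, FOSB from −0.16 to 0.034, FOSL2 from −0.0047 to 0.14 and JUNB from −0.081 to 0.059. Level differences that turned sign were EGR1 at 0.50 with limma-voom and, with single lines left out, EGR1 from −1.59 to 0.48, FOSL1 from −0.38 to 3.44 and JUNB from −0.35 to 1.09. The cause of these changes of sign was not tested. All 160 within-line values under a prior count of 0.5 or RLE scaling stayed within the counting interval. That outcome says little. RLE scaling shifted median ratios by at most 0.012, and intervals are wide at few counts. With a prior count of 0.5, FOSL1 in JURKAT went from 1.64 to 3.24 within an interval that has no upper end. EGR2 and EGR3 rest on few counts, which limits their precision.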
